A study of Caenorhabditis elegans with 4 samples.

Results

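The str genes of the nematode Caenorhabditis elegans encode a family of candidate odorant and taste receptors. All protein-coding genes whose symbol is str- followed by a digit were taken from the RefSeq gene table of assembly WBcel235, which gave 193 genes of 19971 protein-coding genes on the 6 nuclear chromosomes. A further 33 str entries annotated as pseudogenes were left out. The choice used symbols and no measured value. Chromatin came from whole late embryos of strain JA1597, collected by bleaching, aged for 3.5 hours and crosslinked for 10 minutes. All samples share this strain, which carries a transgene at a single site on chromosome IV that expresses GFP-tagged CFP-1 under the dpy-30 promoter. Immunoprecipitation used an anti-GFP serum (2 samples, RC03 and RC04) or an anti-H3K4me3 antibody (2 samples, RC03 and RC04), with no other genotype, treatment or time. The deposited peak names carry an abbreviation usually read as a larval stage, whereas the labels give late embryos, and the labels were followed. The question taken from this design was whether CFP-1 and the mark were called at the str genes.

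Str proteins are seven-pass membrane receptors of the G protein-coupled type, and the str family belongs to a larger group of nematode chemoreceptor families that sit in tandem clusters, many of them on chromosome V. Individual receptors whose expression is known are typically found in very few sensory neurons of the head, such as the paired AWA, AWB and AWC olfactory neurons or the ASI and ADL neurons. CFP-1 is the CXXC zinc finger subunit of the COMPASS complex, which methylates lysine 4 of histone H3, and trimethylation of this lysine (H3K4me3) is typically found at promoters of transcribed genes. In peak lists from whole embryos, a mark present in few cells and a weak mark in many cells cannot be told apart.

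The 4 peak lists held 9216 and 9256 CFP-1 peaks (RC03 and RC04) and 11357 and 12343 H3K4me3 peaks. Read depth is unknown, since peak lists carry no read counts. The labels do not say whether RC03 and RC04 are separate cultures, and the spread between these lists may thus be technical only. The gene table gives both ends of each gene but no strand, so the transcript start is known only as either of the 2 ends. A gene was therefore called for an antibody where both of its lists had a peak within 500 bp of the same gene end. The number of genes called at either end is then an upper limit on genes called at their outermost start, and the number called at both ends is a lower limit. Peaks are in build ce10, and the chromosome lengths of WBcel235 differ from it by about 100 bp at most. Moving all gene ends by 100 bp in either direction left the CFP-1 count of str genes at 5 and gave 8 or 9 for H3K4me3. Among marker lists for tissues of the embryo, at least 1 antibody was called at 8 of 8 muscle genes, 4 of 6 epidermal genes, 6 of 18 pan-neuronal genes, 2 of 7 gut genes and 2 of 5 germ line genes. Of all protein-coding genes, 33.4% were called for at least 1 antibody, and the exact binomial interval of the muscle list (63.1 to 100%) lay above this. The share lay inside the intervals of the epidermal (22.3 to 95.7%), pan-neuronal (13.3 to 59.0%), gut (3.67 to 71.0%) and germ line (5.27 to 85.3%) lists. For these tissues the counts are too small to show whether their genes are detected more often than others. Of the 7 gut genes, act-5 was called for both antibodies and ges-1 for CFP-1, whereas elt-2, elt-7, ifb-2, pho-1 and cpr-6 were called for neither.

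Few str genes had a peak at either end. CFP-1 was called at 5 of 193 str genes, or 2.59% (95% exact binomial interval 0.846 to 5.94%), where 25.9% of all protein-coding genes were called and 26.2% (25.5 to 26.8%) of the 19778 genes other than str. H3K4me3 was called at 8 str genes, or 4.15% (1.81 to 8.0%), against 30.6% of all protein-coding genes and 30.8% (30.2 to 31.5%) of the others. Both antibodies were called at the same end of 4 str genes, or 2.07% (0.568 to 5.22%), against 23% of all protein-coding genes. At least 1 antibody was called at 9 str genes, or 4.66% (2.15 to 8.67%), against 33.4% of all protein-coding genes. The intervals cover counting error only, and no test of the list was made, since genes in tandem clusters are not independent.

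No str gene was called at both ends for either antibody (0 of 193, which allows a share of up to 1.55%). Whatever the strands, the share of str genes called at the outermost start thus lay between 0 and 2.59% for CFP-1 and between 0 and 4.15% for H3K4me3. Among all other genes the share lay between 4.21 and 26.2% for CFP-1, while H3K4me3 had limits of 7.47 and 30.8%. As counted, both upper limits of the str genes thus lay under the lower limits of the others. These limits leave out counting error. The exact binomial intervals of the str upper limits reached 5.94% for CFP-1 and 8.0% for H3K4me3, above those lower limits. With counting error, the ranges are therefore not shown to stay apart. On chromosome V alone, the limits were 0 to 2.56% for the 156 str genes and 2.79 to 17.1% for the other 4839 genes for CFP-1. The interval of that upper limit of the str genes reached 6.43%, above 2.79%. For H3K4me3 on V the limits were 0 to 5.13% and 4.88 to 19.9%, and these ranges overlapped.

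**Figure D1:**
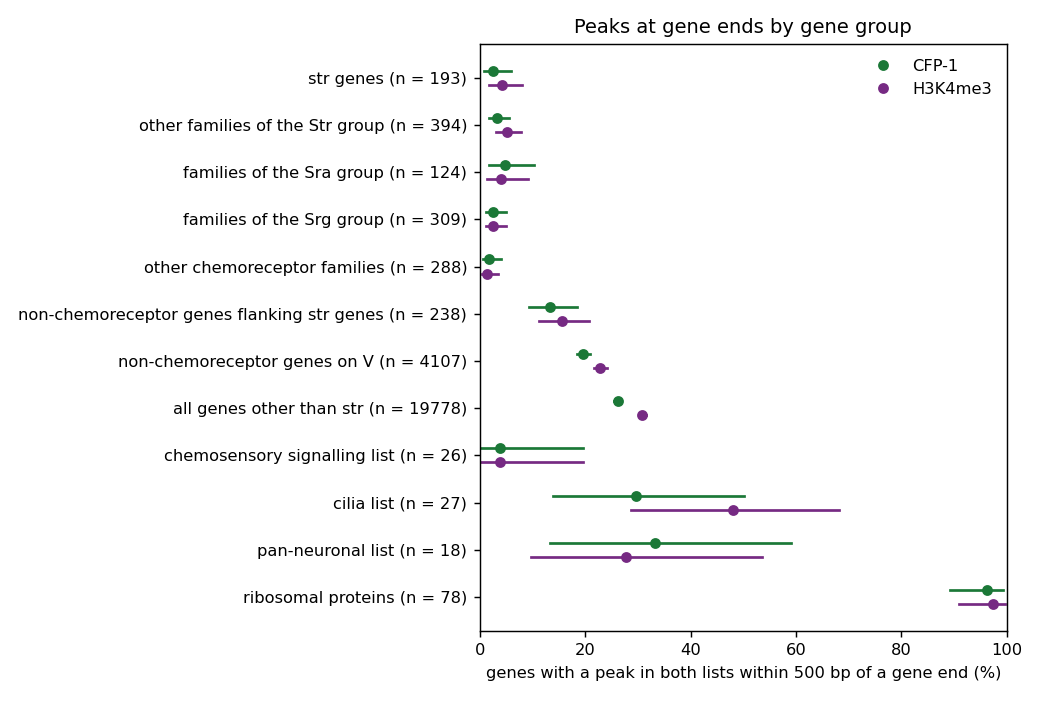
Share of genes with a peak in both lists of an antibody within 500 bp of a gene end (x axis, %), by gene group (y axis, with the number of genes). Points are CFP-1 (green) and H3K4me3 (purple), and lines are 95% exact binomial intervals. The str genes lie at 2.59% and 4.15%, near the other chemoreceptor groups and the chemosensory signalling list, and all genes other than str lie at 26.2% and 30.8%.

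Shares were also low in each list alone. A CFP-1 peak lay within 500 bp of an end of 9 (RC03) and 7 (RC04) str genes, a mean share of 4.15% ± 0.733 (SD, n = 2), against 28.3% ± 0.111 (SD, n = 2) for the other genes. For H3K4me3 the lists gave 10 (RC03) and 12 (RC04) str genes, on average 5.70% ± 0.733 (SD, n = 2), against 32.7% ± 0.139 (SD, n = 2). For both antibodies the difference between str and other genes was larger than the spread between lists. H3K4me3 lists called on average 3.0 more str genes than CFP-1 lists, with no overlap between the list counts (exact permutation test over the 4 lists, two-sided p = 0.333, the smallest this design can give). The list counts of the other genes did not overlap either, with means of 5604.5 for CFP-1 and 6469.5 for H3K4me3. With a window of 250 bp the difference for the str genes was -0.5. In all, 174 of the 193 str genes (90.2%) had no peak of any list within 500 bp of an end, against 61.5% of the other genes.

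Some peaks at str genes did not recur between lists. Of 11 str genes with a CFP-1 peak in either list, 6 had it in a single list or at different ends (54.5%), against 14.1% of the other genes with a CFP-1 peak. For H3K4me3 the values were 5 of 13 (38.5%) and 10.7%. The difference was not tested. The genes with such unmatched CFP-1 peaks were str-47, str-141, str-172, str-208, str-222 and str-225, and those with unmatched H3K4me3 peaks were str-118, str-125, str-141, str-200 and str-217.

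Wider windows gave more calls in every group, and the str genes stayed near the other chemoreceptor families. Within 2000 bp, 21 str genes (10.9%) were called for CFP-1 and 25 (13%) for H3K4me3, against 9.69% and 11% of the 1115 genes of other chemoreceptor families and 40.9% and 43.7% of all genes other than str. Within 10000 bp, 47.7% of str genes were called for CFP-1 and 40.4% for H3K4me3, against 63.3% and 62.6% of the 4107 genes on V that are no chemoreceptors. A gene end inside the peak itself was found for no str gene with CFP-1 and for 1 with H3K4me3, str-81 (0.518%). The shares were 0.538% and 0.717% in the other chemoreceptor families, and 10.5% and 21.2% in all genes other than str.

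**Figure D2:**
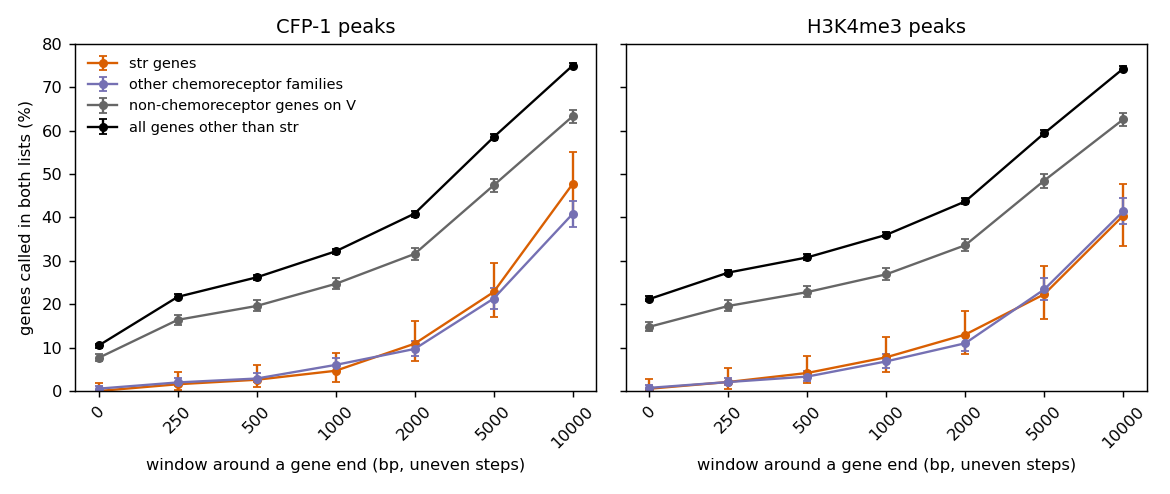
Share of genes called in both lists (y axis, %) against the window around a gene end (x axis, bp, in uneven steps) for CFP-1 (left) and H3K4me3 (right). Error bars are 95% exact binomial intervals. The str genes follow the other chemoreceptor families and, up to 10000 bp, stay under the genes on V that are no chemoreceptors.

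The str genes shared features of position that their symbols did not set, some of them also found in the other chemoreceptor families. On chromosome V lay 156 of them (80.8%), with 28 on IV, 5 on X, 2 on III and 1 each on I and II, whereas V holds 24.5% of the other genes. The adjacent protein-coding gene on at least 1 side was another str gene for 98 of the 193 (50.8%) and a chemoreceptor of any family for 128 (66.3%). Their median length was 1.60 kb (quartiles 1.36 and 1.95 kb), against 2.02 kb (1.20 and 3.61 kb) for the other genes and 1.66 kb for the other chemoreceptor families. The nearest end of another protein-coding gene lay a median of 521 bp from a str gene end, also 521 bp in the other chemoreceptor families, and 311 bp from an end of the other genes. Among genes with no other end within 1000 bp, 1 of 35 str genes was called for CFP-1 and 1 for H3K4me3 (2.86% each, 0.0723 to 14.9%), against 16.5% and 20.2% of 4000 other genes.

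On V the shares of str genes lay under those of genes that are no chemoreceptors, and near those of the other 732 chemoreceptor genes there (2.73% for CFP-1 and 3.14% for H3K4me3). On V, CFP-1 was called at 2.56% of str genes (0.703 to 6.43%) and at 19.6% (18.4 to 20.9%) of genes that are no chemoreceptors, and H3K4me3 at 5.13% (2.24 to 9.85%) and 22.8% (21.6 to 24.2%). In the left, middle and right parts of V, of equal length, CFP-1 was called at 1 of 58, 1 of 41 and 2 of 57 str genes, and at 19%, 23.8% and 15.1% of genes that are no chemoreceptors. The nearest non-chemoreceptor genes on each side of str genes, 238 in all, were called in 13.4% (9.38 to 18.4%) of cases for CFP-1 and 15.5% (11.2 to 20.8%) for H3K4me3. These flanking genes lie on all chromosomes with str genes, so the comparison with all 193 str genes (2.59% and 4.15%) is the matching one. Nothing in the labels gives how reads were placed among near-identical family members, and the part of this step in these counts was not tested.

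Of the 9 called str genes, 4 had both antibodies at the same end, all on chromosome V. At str-12 (locus tag CELE_B0391.4), CFP-1 peaks lay 149 bp (RC03) and 130 bp (RC04) outside the gene, at positions 15610335 to 15610741 and 15610363 to 15610760, with scores of 76.1 and 87.0. The score is the deposited value of each peak, read here as −log10 units. It is compared only within a list, where these peaks ranked at the 88.2 and 89.2 percentile. The nearest H3K4me3 peaks of str-12 lay 79 and 71 bp outside it and were narrow (166 and 162 bp), with scores of 3.74 and 8.37. A further H3K4me3 peak of each list began 326 and 386 bp out and covered the near end of the neighbour fbxa-153, a gene of the F-box A family. Both CFP-1 peaks covered that end as well.

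At str-39 (CELE_F37B4.12), H3K4me3 peaks lay 7 and 59 bp from the gene end, at 2877083 to 2877797 and 2877036 to 2877745, with scores of 34.7 and 32.3. CFP-1 peaks lay 113 and 91 bp out with scores of 16.3 and 14.6, near the middle of their lists (58.1 and 55.7 percentile). All 4 peaks covered the near end of the neighbouring gene F37B4.10, which lies 195 bp from str-39. At str-94 (CELE_F07C3.8), CFP-1 peaks lay 301 and 182 bp out (scores 23.1 and 22.8) and H3K4me3 peaks 208 and 135 bp out (scores 30.6 and 33.0), the latter 1069 and 1200 bp wide. The other flank of these peaks faced aat-2, an amino acid transporter gene, whose end lay 395 and 337 bp from the H3K4me3 peaks and over 1 kb from the CFP-1 peaks. An annotated non-coding RNA gene, F07C3.14, spans the called end of str-94.

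At str-109 (CELE_F10A3.5), both antibodies lay between the receptor gene and F10A3.17. CFP-1 peaks were 234 and 198 bp from str-109, with scores of 7.78 and 9.62 (35.1 and 43.3 percentile), and 523 and 501 bp from F10A3.17. H3K4me3 peaks were 263 and 327 bp from str-109 and 265 and 317 bp from F10A3.17, with scores of 20.1 and 18.9, so they lay about midway.

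A single str gene, str-170 on chromosome IV (CELE_T08B6.7), was called for CFP-1 without H3K4me3. Its CFP-1 peaks lay 374 and 397 bp out, at 4880689 to 4881039 and 4880712 to 4881047, with scores of 50.0 and 65.5 (81.0 and 84.8 percentile). They covered the annotated small nucleolar RNA gene T08B6.64, which lies 423 to 535 bp outside str-170. The nearest H3K4me3 peak of either list was over 66 kb away.

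The remaining 4 genes were called for H3K4me3 alone. At str-238, H3K4me3 peaks lay 431 and 475 bp out, with scores of 105 and 90.6 that ranked at the 99.0 and 98.4 percentile. They covered the near end of sti-1, which encodes a co-chaperone of Hsp90, and CFP-1 peaks lay at the same place, 645 and 619 bp from str-238. At str-253, H3K4me3 peaks lay 449 and 485 bp out with scores of 42.6 and 32.2 and covered the near end of F41B5.1, with CFP-1 665 and 637 bp out.

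At str-56, H3K4me3 peaks lay 264 and 279 bp out with scores of 7.38 and 9.94 and covered the near end of nhr-102, a nuclear hormone receptor gene. The nearest CFP-1 peaks were 71314 and 6934 bp from str-56. At str-81, H3K4me3 peaks covered the gene end (scores 16 and 27.9) and further peaks followed inward along the gene. This gene is annotated with a length of 25.6 kb, the longest of the family, and the pseudogene F21D9.5 lies over its called end.

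**Figure D3:**
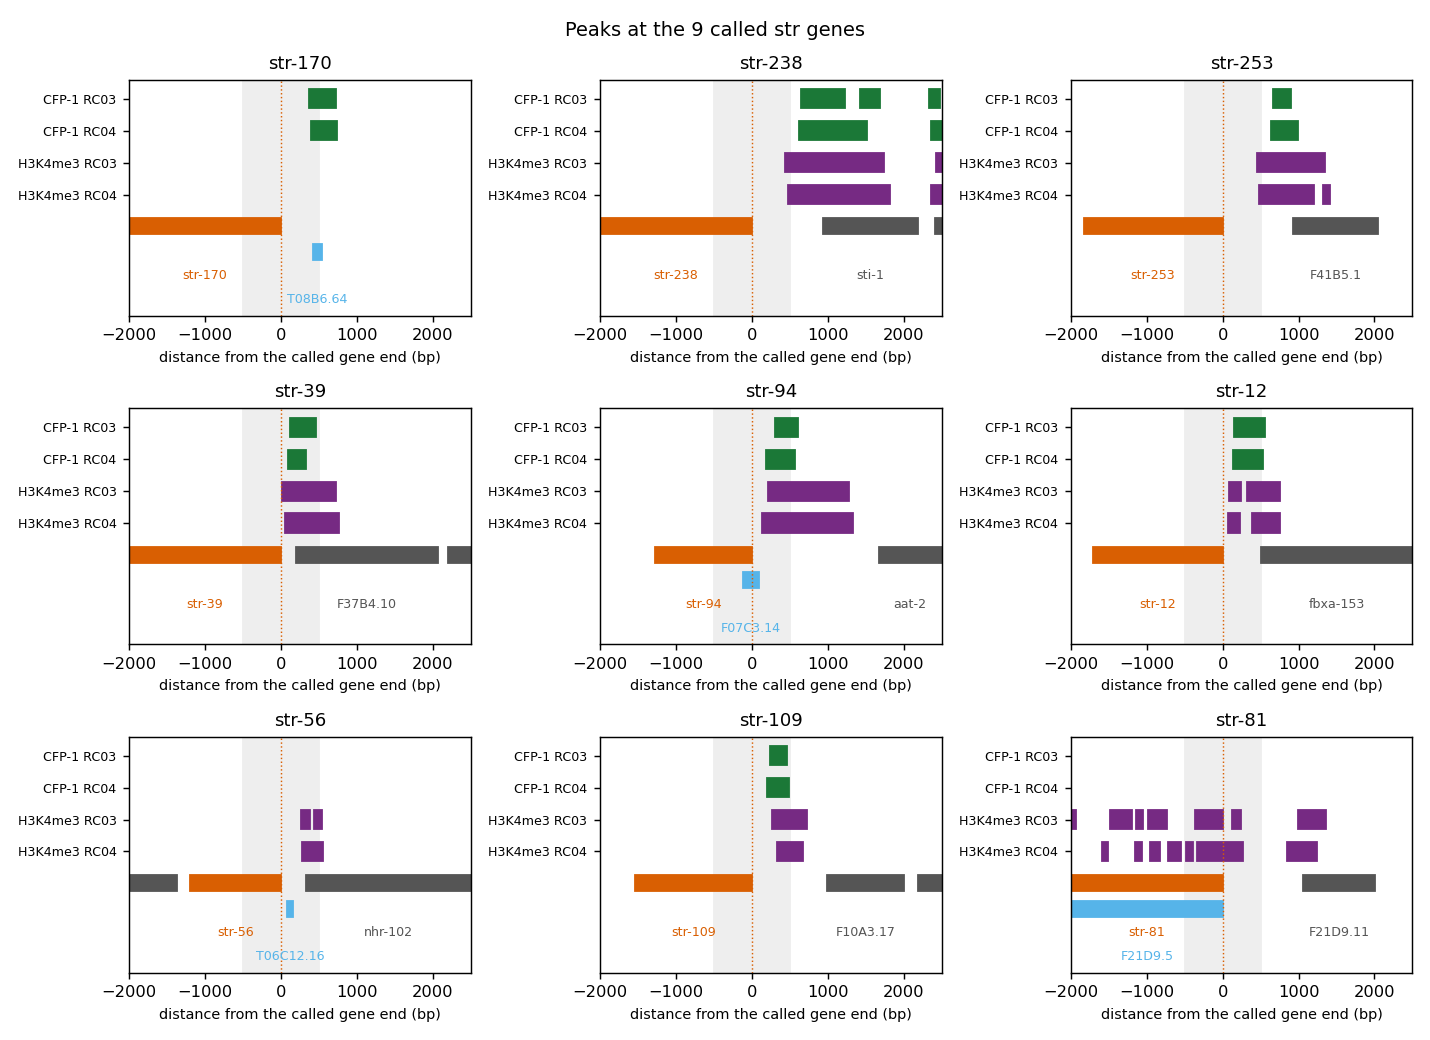
The 9 called str genes, each drawn with the called end at 0 (x axis, bp, positive away from the str gene) and the window of 500 bp in grey. Peaks of each list are green (CFP-1) or purple (H3K4me3), the str gene is orange, other protein-coding genes are grey and other annotated genes are blue (piRNA genes are not drawn). At str-39, str-238, str-253 and str-56 the H3K4me3 peaks reach the neighbour, whereas at str-170 CFP-1 stands alone over T08B6.64.

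Several of the peaks at str genes lay nearer to a neighbour. A peak was given to the neighbour where the end of another protein-coding gene was nearer to it than the ends of the called gene in both lists. For CFP-1 this held for 2 of 5 str genes, str-12 and str-39 (40.0%, 5.27 to 85.3%), and for 927 of 5172 other called genes (17.9%, 16.9 to 19%). For H3K4me3 it held for 4 of 8 str genes, str-39, str-56, str-238 and str-253 (50.0%, 15.7 to 84.3%), and for 594 of 6099 other genes (9.74%, 9.01 to 10.5%). At str-109 the H3K4me3 lists differed. Among the other genes, both ends were equally near in 11.1% (CFP-1) and 31.7% (H3K4me3), and the lists differed in 14.6% and 15.1%. Their own end was nearer in 56.4% and 43.5%, against 60.0% and 37.5% of the called str genes, none of which had such a tie. The intervals of the str genes are wide, and measured to the middle of the peak the shares of the other genes were 24.4% and 25.8% while those of the str genes did not move. With the ends of all annotated genes, including non-coding RNAs and pseudogenes, 4 of 5 CFP-1 calls and 5 of 8 H3K4me3 calls lay nearer to another gene. Among the other genes this held for 1195 of 5172 CFP-1 calls (23.1%) and 700 of 6099 H3K4me3 calls (11.5%). By that measure the str genes left with peaks of their own were str-109 for CFP-1 and str-12 for H3K4me3.

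The called genes nearest the edge of the window were str-238 and str-253, at 475 and 485 bp in RC04, and 5 genes lay just outside a call. At str-118, H3K4me3 peaks lay 473 bp out in RC03 and 548 bp out in RC04, and both covered an end of yif-1, a gene of vesicle transport between endoplasmic reticulum and Golgi. At str-138, CFP-1 peaks lay 659 and 639 bp out, nearer to ZC513.2. At str-125, H3K4me3 peaks lay 557 and 93 bp out with low scores of 4.71 and 2.64. At str-141 the H3K4me3 peaks had scores of 8.79 and 2.64 (57.2 and 6.77 percentile). At str-200 they had low scores of 2.05 and 2.61.

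Receptors with a known site of expression had no call, but only 9 of 193 str genes (4.66%) were called for at least 1 antibody. Of all protein-coding genes the share was 33.4%. The absence of a call thus does not set these receptors apart from other str genes. The nearest CFP-1 peaks lay 5215 bp (RC03) and 5218 bp (RC04) from str-1, a receptor gene of the AWB neurons, and its nearest H3K4me3 peaks lay 4835 and 4554 bp away, all near skr-16. For str-2, known for its expression in a single neuron of the AWC pair, all 4 distances lay between 31354 and 32022 bp. For str-3, a gene of the ASI neurons, they lay between 5131 and 5827 bp.

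For str-44, a receptor gene of the AWA neurons and a neighbour of str-1, they lay between 7952 and 8616 bp. At str-217, which acts in the ADL neurons in the response to the repellent DEET, an H3K4me3 peak of RC04 covered a gene end with a low score of 3.99 (25.8 percentile), whereas the RC03 peak lay 1067 bp away. The diacetyl receptor gene odr-10, a receptor of the same kind under another name, had low-scoring H3K4me3 peaks 1681 and 1689 bp away (scores 4.54 and 2.24) and no CFP-1 peak within 23 kb.

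The other genes of the chemosensory system differed in how often they were called. In a list of 26 chemosensory signalling genes, such as the cyclic nucleotide-gated channel genes tax-2 and tax-4 and the G protein gene odr-3, a single gene was called for both antibodies (3.85%, 0.0973 to 19.6%). It was eat-16, which encodes a regulator of G protein signalling that acts widely in the nervous system. Of 27 genes of the cilium, the organelle that carries these receptors, 8 were called for CFP-1 (29.6%, 13.8 to 50.2%) and 13 for H3K4me3 (48.1%, 28.7 to 68.1%). They included daf-19, the regulator of ciliary genes, and kap-1 and klp-11, subunits of the kinesin-II motor, each called for both antibodies. Of 18 pan-neuronal genes, 6 were called for CFP-1 (33.3%, 13.3 to 59.0%) and 5 for H3K4me3 (27.8%, 9.69 to 53.5%). They included the synaptobrevin gene snb-1, whereas rab-3, unc-13 and unc-64 were among those called for neither antibody. The shares of all protein-coding genes, 25.9% for CFP-1 and 30.6% for H3K4me3, lay inside the intervals of the cilium and pan-neuronal lists. Of 78 cytosolic ribosomal protein genes, 75 were called for CFP-1 and 76 for H3K4me3.

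Away from the window, the str genes lay far from both antibodies. Overlapping peaks of an antibody (by at least 1 bp) were merged, and those intervals to which RC03 and RC04 each gave a peak are called regions here. From the nearer gene end of a str gene, the nearest CFP-1 region lay a median of 10.3 kb away (quartiles 5.17 and 20.6 kb), against 3.37 kb (0.390 and 10.3 kb) for the other genes. For H3K4me3 regions the median was 14.4 kb (6.31 and 31.4 kb), against 3.10 kb (0.0770 and 10.8 kb). In the other chemoreceptor families the medians were 12.4 kb for CFP-1 and 13.2 kb for H3K4me3. On V the medians were 11.7 kb and 13.5 kb for the str genes, and 5.86 kb and 5.92 kb for the genes that are no chemoreceptors. A CFP-1 region lay inside the span of 2 str genes, str-81 and str-268 (1.04%, 0.126 to 3.69%), against 18.6% of the other genes. An H3K4me3 region lay inside the span of str-81 alone (0.518%, 0.0131 to 2.85%), against 28.0% of the other genes. The other chemoreceptor families had 1.88% and 2.24%.

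**Figure D4:**
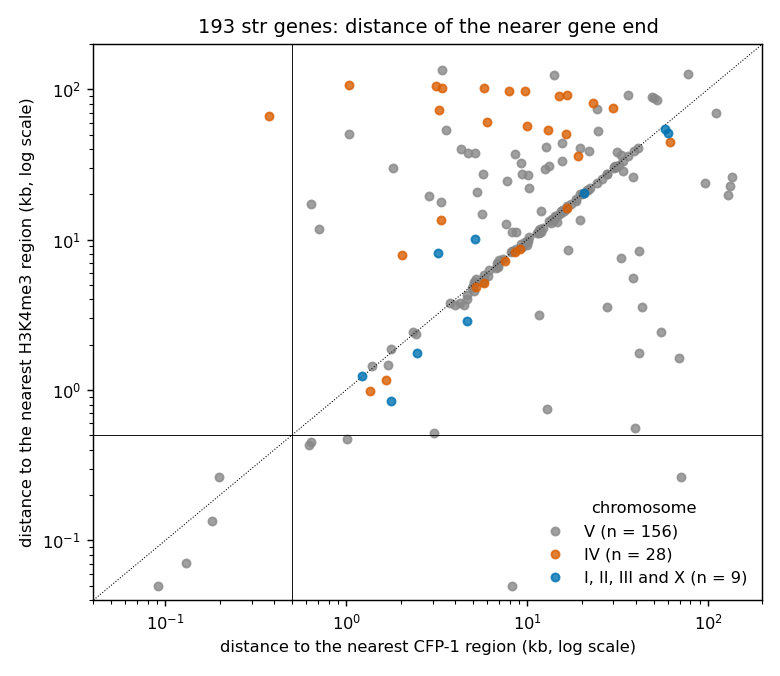
Distance from the nearer end of each of the 193 str genes to the nearest CFP-1 region (x axis, kb, log scale) and H3K4me3 region (y axis, kb, log scale), coloured by chromosome. Values under 0.05 kb are drawn at 0.05 kb, solid lines mark 0.5 kb and the dotted line marks equal distances. Most points lie beyond 0.5 kb on both axes, and a group of genes on IV lies far above the dotted line, with H3K4me3 more distant than CFP-1.

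The str genes lay in long stretches without H3K4me3 regions, an analysis chosen after the distances had been seen. Such a stretch can still hold H3K4me3 peaks of a single list. Between neighbouring H3K4me3 regions, 192 of the 193 str genes fitted wholly inside a stretch, in 84 stretches of 8044, as did 71.9% of the other genes and 97.8% of the other chemoreceptor families. These shares largely restate the counts of H3K4me3 regions inside gene spans given above, and only the widths add to them. The median width of the stretch around a str gene was 71.6 kb (quartiles 44.9 and 117 kb), against 35.3 kb (19.3 and 63.8 kb) for other genes and 61.8 kb (35.7 and 109 kb) for other chemoreceptor families wholly inside a stretch. On V the medians were 71.3 kb for str genes and 47.8 kb for genes that are no chemoreceptors. Stretches wider than 100 kb held 63 str genes (32.6%), 28.0% of the other chemoreceptor genes and 8.76% of all other genes. On V they held 27.6% of the str genes and 17.8% of the genes that are no chemoreceptors. Each of the 5 widest stretches of all held at least 1 str gene, and 9 of the 20 widest did, although wide stretches hold many genes of every kind.

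The widest stretch lay on V, from 2877798 to 3192744 (315 kb). It held str-39, str-40, str-46, str-66, str-68, str-69 and str-244 among 88 protein-coding genes, 45 of which were chemoreceptors of other families. Neither H3K4me3 list had a peak in it, and it held 2 CFP-1 regions with scores between 6.23 and 16.9. The next, also on V (3760200 to 4029489, 269 kb), held str-82, str-83, str-229 and str-247 and 2 CFP-1 regions, the second of which overlapped the neuropeptide-like gene nlp-31, 1.04 kb from str-83. Unlike the widest stretch, it also held 3 H3K4me3 intervals called in a single list.

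The third widest stretch lay on IV, from 4811290 to 5038669 (227 kb), and held 17 of the 28 str genes of that chromosome among 54 protein-coding genes. Neither H3K4me3 list had a peak in it, but it held 5 CFP-1 regions. The strongest was the one over T08B6.64 beside str-170. Another, at 4930790 to 4931028 with scores of 9.35 and 13.5, overlapped the small nuclear RNA gene Y9C9A.111 and the protein-coding gene Y9C9A.8, 3.38 kb from str-153. The other 3 lay within 4.70 kb of str-158, over the pseudogene Y9C9A.112, with scores of 2.01 to 5.51, none ranked above the 23.4 percentile of its list.

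In this stretch CFP-1 was nearer than the mark for 16 of the 17 str genes, which follows largely from the choice of a wide stretch without H3K4me3 regions and is given as a description. Their distance to the nearest CFP-1 region ran from 0.374 to 61.4 kb with a median of 9.71 kb, and to the nearest H3K4me3 region from 44.8 to 107 kb with a median of 80.4 kb. For the other 11 str genes on IV the medians were 5.80 and 7.92 kb, and CFP-1 was nearer for 3. Over all 28 str genes on IV, the nearest CFP-1 region was free of any H3K4me3 peak in 20 cases (71.4%), against 22.6% of the other genes on IV and 25.6% of the str genes on V. The 28 genes share 11 nearest CFP-1 regions, so they are not independent. Of these genes, 17 lie in the stretch and have their nearest CFP-1 region there, free of H3K4me3 peaks. The 71.4% thus also follows largely from the choice of the stretch. Genes of piRNAs, small RNAs of the germ line, lay within 1000 bp of 23 of the 28 (82.1%), against 28.8% of the other genes on IV and 56.8% of the other chemoreceptor genes there, and 309 of them lay in the stretch. All 17 str genes of the stretch had a piRNA gene within 1000 bp, so the 82.1% rests largely on this single locus. The part of the piRNA genes in the CFP-1 calls was not tested.

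**Figure D5:**
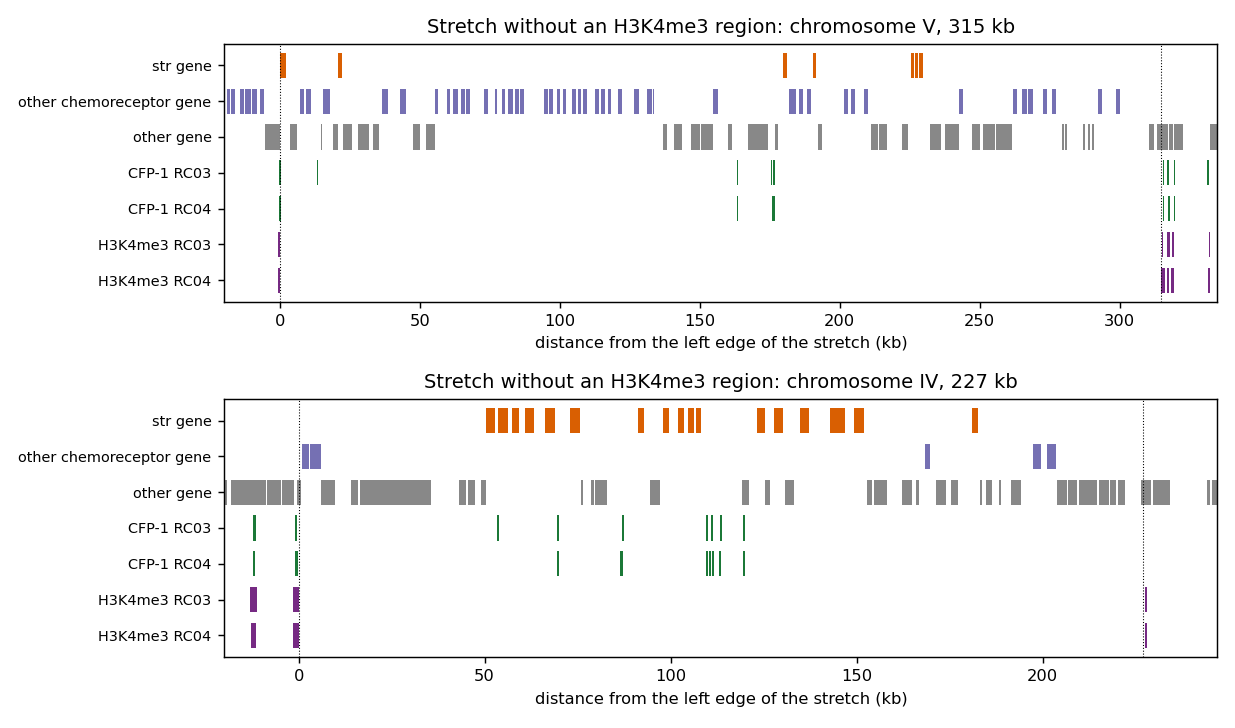
Genes and peaks in the stretch of 315 kb on V (top) and of 227 kb on IV (bottom), against the distance from the left edge of the stretch (x axis, kb). Rows are str genes (orange), other chemoreceptor genes (violet), other protein-coding genes (grey) and the peaks of the 4 lists, and dotted lines mark the edges. Neither H3K4me3 list has a peak between the edges, and CFP-1 peaks stand among the str genes on IV.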

How the data were processed

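Peak positions were taken as deposited, 1 list per sample and not pooled, in build ce10. Reads were aligned with BWA and peaks called with MACS2 2.0.10, per the submitters' processing notes. No source used here states the control, the threshold or the handling of duplicate reads. Each peak's deposited score was read as −log10, as MACS2 writes p or q values, with no statement of which was used. Scores served only to rank peaks within a list.

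Genes came from the RefSeq table of WBcel235, used for distances in bp with its own coordinates not printed. The table has no strand, so the planned strand-aware starts were replaced by both gene ends, which gives limits in place of a share. Promoter CpG content was not analysed here. The str genes, gene lists and comparisons were chosen with earlier results of these data known. Named genes were all called str genes, the 5 nearest outside the window, 5 receptors with a known site of expression and odr-10; the nearest neighbouring gene was named at called genes and, elsewhere, where nearer to the peak. Genes in the long stretches, str-268, unmatched calls and examples from the lists were named after their values were seen.

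A call needed a peak of both lists within 500 bp of the same gene end. Shares have 95% exact binomial (Clopper-Pearson) intervals. For the count of 0 str genes called at both ends, the limit was set at 3 counts. List counts were compared by an exact permutation test. Same-numbered lists did not deviate together (Spearman rho -0.043 of rank differences over 5427 regions), and the labels state no pairing. Alternatives changed the window, lists, scores, gene ends and genes. The distance code was tested on simulated data, and returned 200 of 200 planted distances on V (4995 genes). Scripts ran in Python 3.11.15 with scipy 1.17.1, numpy 2.4.6, pandas 2.3.3 and, for figures, matplotlib 3.10.9.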

Additional observations from a re-analysis of the deposited data

How the results depend on the processing

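Of 66 values under alternatives, 39 kept their direction and lay within 1.5 times the main count or within the spread of the lists, 26 moved further, and 1 changed sign. With a window of 250 bp the calls were 3 for CFP-1, 4 for H3K4me3 and 2 for both antibodies, with 1000 bp 9 and 15, and with 2000 bp 21, 25 and 16. A gene end inside the peak gave 0, 1 and 0 calls. A peak in either list gave 11 and 13. Genes with no other end within 1000 bp gave 1, 1 and 0, by construction from 35 genes. In all of these settings the share of the other genes, recomputed in the same way, was higher than that of the str genes. With a list left out, CFP-1 calls were 7 to 9 and H3K4me3 calls 10 to 12. The 9 calls, without CFP-1 RC04, are over 1.5 times the 5 of both lists. As a replicate block, same-numbered lists gave 4 (RC03) and 5 (RC04) genes with both antibodies. Peaks nearer to another gene went from 2 to 4 of 5 for CFP-1 with the ends of all annotated genes. With a peak in either list they were 4 of 11, so the share went from 40.0% to 36.4%. With a list left out they were 3 for CFP-1 (of 7 and 9 called) and 5 to 7 for H3K4me3 (5 of 10 and 7 of 12, the latter without RC03). Median distances were 7.39 kb (CFP-1) and 10.9 kb (H3K4me3) to merged peaks of either list, and 11.7 kb to CFP-1 on V. With a list left out they were 8.24 to 9.08 kb and 11.2 to 13.5 kb. The difference between antibodies per list was -0.5 at 250 bp, reversed from 3.0 (exact permutation p = 1.00). The span of the gene with 500 bp on each side, added after the data were seen, gave 7 and 9 calls. Read depth is unknown, so an absent peak is not an absent mark.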

Other observations

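The other chemoreceptor families, 1115 genes in all, were called in 2.87% (1.97 to 4.03%) of cases for CFP-1 and 3.32% (2.35 to 4.55%) for H3K4me3. Values differed between families, with no test made. None of the 35 sra, 23 srab, 12 srb, 39 srj and 37 srsx genes was called for either antibody. Their exact binomial intervals reached 10.0, 14.8, 26.5, 9.03 and 9.49%, and each held the 2.87% and 3.32% above. These families are thus not shown to differ from the others. In the sre family 6 of 54 genes were called for CFP-1 (11.1%, 4.19 to 22.6%) and 5 for H3K4me3 (9.26%, 3.08 to 20.3%). In the srh family, the nearest to str in size with 220 genes, the counts were 8 (3.64%, 1.58 to 7.04%) and 11 (5.0%, 2.52 to 8.77%). Of the srw genes, 1 was called for each antibody (0.917%).

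Of the 33 str pseudogenes, 1 was called for CFP-1, str-21, and 2 for H3K4me3, str-11 and str-179. The shares for CFP-1 and H3K4me3 were 2.59% and 4.15% of the protein-coding str genes and 25.9% and 30.6% of all protein-coding genes.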
